A study of Drosophila melanogaster with 3 samples.

Results

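The genes of the insulator and architectural proteins of Drosophila melanogaster were examined for Chrac-16 peaks at their promoters and along their bodies. Chosen by name for what their products do, with earlier results of these data known, they were 10 genes. These were Chro, Cp190, CTCF, su(Hw), BEAF-32, Trl, mod(mdg4), pzg, Ibf1 and Ibf2. They stood among 13945 protein-coding genes on 6 chromosome arms. The measurement was chromatin immunoprecipitation followed by sequencing (ChIP-seq) in 3 biological replicates of whole embryos, mixed in sex and 0 to 24 h old. All 3 replicates came from the strain Chrac-16-GFP, a transgenic line with GFP fused to the C-terminal end of Chrac-16, and the precipitating antibody recognised GFP. There was 1 group and no second condition, so no test between conditions was possible and every value below is a description. The promoter that drives the fusion is not given in the sources used here, and all tissues of the embryo were pooled.

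Chrac-16 has a histone fold and belongs to CHRAC, in which the ATPase Iswi slides nucleosomes along DNA. Insulators are DNA elements that keep enhancers from acting on the wrong promoter and that often lie at the borders of chromosome domains. In flies several DNA-binding proteins each recognise their own sequence there, and cofactors, several with BTB domains, join them into larger complexes. The DNA-binding products among the genes examined were CTCF, su(Hw), BEAF-32, GAGA factor (the product of Trl), Ibf1 and Ibf2. The cofactors were Cp190, mod(mdg4), Chro and pzg.

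Sequences at or near the peaks that the results turn on are printed first, all from the plus strand of release 6 of the genome (dm6), 5′ to 3′. The first set has a summit, the position where a peak is highest, with 50 bases on each side and the 11 central bases in capitals. It holds the promoter summits of Cp190 and su(Hw), the weak summit shared by Ibf1 and Ibf2, and the 3 intron summits of Trl, which are named by their distance from the nearest Trl start. The windows lie at chr3R:15275332-15275432 for Cp190, chr3R:14308832-14308932 for su(Hw) and chr3R:9258642-9258742 for Ibf1 and Ibf2. Those of Trl lie at chr3L:14759457-14759557, chr3L:14756114-14756214 and chr3L:14760394-14760494.
Cp190: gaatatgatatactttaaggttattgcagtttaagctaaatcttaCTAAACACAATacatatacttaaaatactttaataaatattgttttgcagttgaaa
su(Hw): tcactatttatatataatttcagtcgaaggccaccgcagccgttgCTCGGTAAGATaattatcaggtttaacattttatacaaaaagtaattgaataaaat
Ibf1 and Ibf2: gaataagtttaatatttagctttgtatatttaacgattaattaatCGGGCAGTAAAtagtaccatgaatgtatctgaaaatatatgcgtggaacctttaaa
Trl intron, 1542 bp: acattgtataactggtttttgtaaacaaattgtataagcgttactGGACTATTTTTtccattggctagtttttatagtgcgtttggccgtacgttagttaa
Trl intron, 1172 bp: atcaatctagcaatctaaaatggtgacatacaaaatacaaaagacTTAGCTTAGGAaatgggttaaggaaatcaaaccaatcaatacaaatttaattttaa
Trl intron, 605 bp: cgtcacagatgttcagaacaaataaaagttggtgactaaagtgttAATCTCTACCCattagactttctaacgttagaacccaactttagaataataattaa

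The second set shows short stretches of 30 bases with a motif in capitals. At Chro it is CGATA, the core recognised by BEAF-32, at the summit of the strongest peak of all 10 genes (chr3L:22878881-22878910). At the others it is TATCGATA, the DNA replication-related element (DRE) recognised by the factor Dref, which contains CGATA. These lie at chr3R:15275227-15275256 for Cp190, chr3L:7356716-7356745 for CTCF, chr3R:21377437-21377466 for mod(mdg4), chr3R:9258913-9258942 for Ibf1 and chr3R:9258490-9258519 for Ibf2. The stretch at Ibf1 lies outside the weak peak that Ibf1 and Ibf2 share, and the other stretches lie inside a peak.
Chro: gtattgcctgtCGATAgctttaaactaact
Cp190: cgctcggcagcTATCGATAgccatgcgata
CTCF: gtaccgccagcTATCGATAgttcgattggt
mod(mdg4): aagtgacaataTATCGATAgcttaaaatat
Ibf1: caaaatggtttTATCGATAtgtcgatacat
Ibf2: ttcaaccgatgTATCGATAacatgccatcg

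Promoter peaks were present at 7 of the 10 genes. A gene was counted when it had a summit no more than 500 bp from a transcript start in the authors' optimal list, the 4941 peaks that passed their procedure for reproducibility. The 7 were Chro, Cp190, CTCF, su(Hw), BEAF-32, Trl and pzg, that is 4 of the 6 genes of DNA-binding proteins and 3 of the 4 of cofactors. Over all protein-coding genes 22.5% had such a summit. The other 3, mod(mdg4), Ibf1 and Ibf2, had a promoter summit only in the relaxed lists, which hold many weaker peaks. All 10 genes had one in the pooled relaxed list of 24641 peaks, where the share over all genes was 49.7%. All 10 had one in each replicate's relaxed list too, beside 52.7%, 47.0% and 52.3% of all genes in replicates 1, 2 and 3. In embryos pooled whole, binding in fewer cells and weaker binding per cell cannot be told apart. At su(Hw) and pzg the start nearest to the optimal summit belonged to a neighbouring gene. At Cp190 a neighbour's start was nearer by 1 bp, at 140 against 141 bp, while the summits of replicates 2 and 3 were nearer to Cp190. Counting only the nearest start therefore leaves 4 genes, or 5 if Cp190 is kept. The share over all genes was not computed under that rule, so the 22.5% is not a like comparison for these counts.

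The strength of these peaks varied widely. Strength is given as the authors' signal value, whose scale differs between lists, and as the rank by that value, where 1 is the strongest. Means and SDs over replicates were taken without rescaling, and the median signal of the lists was 15.6, 18.2 and 15.9 in replicates 1, 2 and 3. The median percentile of the 7 genes in the optimal list, the share of its peaks that a peak equals or exceeds, was 72.5, against 59.7 over the 3137 genes with an optimal promoter summit. Chro was 4th of those 3137 genes by its strongest promoter signal and Cp190 was 98th, while CTCF was 2459th. The neighbouring genes Ssl1 and CG4338 had the same signals as Chro and Cp190, because they share these peaks. The optimal list ended at a signal of 99.6; the weakest of the 7 inside it was CTCF at 129 and the strongest outside was mod(mdg4) at 90.2.

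**Figure D1:**
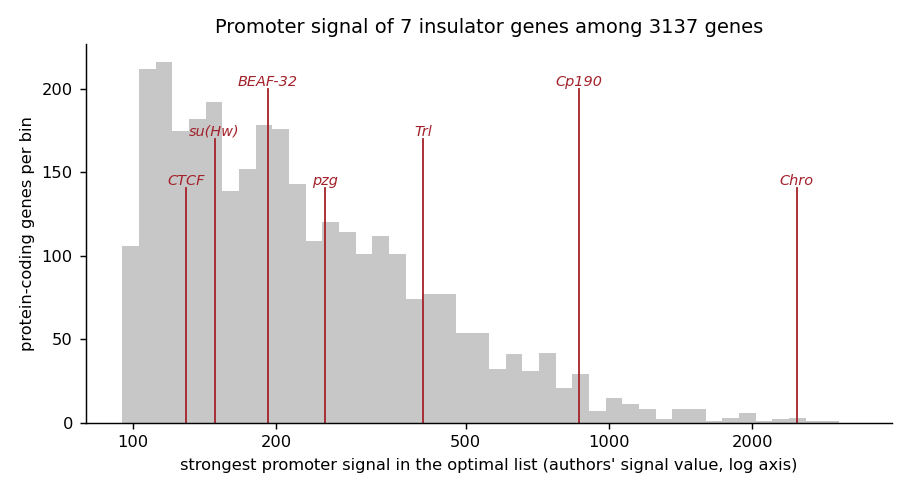
The histogram (grey) counts protein-coding genes by their strongest promoter signal in the optimal list, on a log axis, and the red lines mark the 7 insulator genes. Genes that share a peak are counted separately. Chro at 2479 and Cp190 at 864 lie in the right tail, and CTCF at 129 and su(Hw) at 148 near the left end.

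Taking the strongest promoter peak, 6 genes (Chro, Cp190, su(Hw), BEAF-32, Trl and pzg) ranked among the 4941 strongest peaks of all 3 replicates, beside 17.5% of all protein-coding genes. By mean percentile the order was Chro, Cp190, Trl, pzg, BEAF-32, su(Hw), CTCF, mod(mdg4), with Ibf1 and Ibf2 last and equal. The percentile ranges of neighbours over the replicates did not overlap from Chro down to su(Hw). They overlapped between su(Hw) and CTCF, between CTCF and mod(mdg4), and between mod(mdg4) and the Ibf genes. Within each replicate, however, CTCF ranked above mod(mdg4) and mod(mdg4) above the Ibf genes. CTCF ranked above su(Hw) in replicates 2 and 3 and below it in replicate 1, so the order of these 2 genes differed between replicates.

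**Figure D2:**
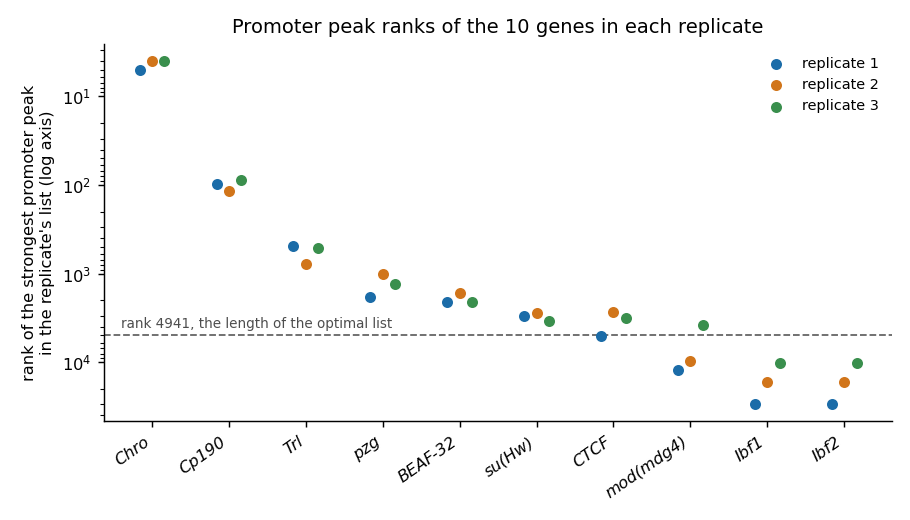
Each point is the rank of the strongest promoter peak of a gene in the relaxed list of a replicate, on an inverted log axis, and the dashed line is rank 4941. Chro stays between ranks 4 and 5 and Cp190 between 89 and 116, CTCF crosses the line in replicate 1, and mod(mdg4) is above it in replicate 3 only.

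Among the cofactors Chro carried the strongest peak. Chro encodes Chromator, a chromodomain protein of polytene interbands and the mitotic spindle. Its peak (chr3L:22878697-22879119) had a signal of 2479 in the optimal list, rank 5 of 4941. In replicates 1, 2 and 3 the signal was 780, 888 and 814, a mean of 827 ± 55.5 (SD, n = 3), at ranks 5, 4 and 4. No replicate stood apart. The summit lay 89 bp downstream of the most upstream of 3 Chro starts, inside an untranslated first exon, and its position ranged over 2 bp between replicates. The median range over the 2545 optimal promoter summits seen in all replicates was 43 bp, with quartiles of 22 and 80 bp. The start of Ssl1, a subunit of the general transcription factor TFIIH, lies head to head with that of Chro at a distance of 105 bp. It is within 500 bp of the summit too, so the peak was counted for both genes. The CGATA shown above starts 3 bp from the summit and covers it.

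Cp190 encodes the BTB and zinc-finger protein that most fly insulator proteins recruit. Its peak (chr3R:15275189-15275566) had a signal of 864 and rank 97 in the optimal list. The replicates gave 282, 277 and 306, a mean of 288 ± 15.3 (SD, n = 3), at ranks 98, 116 and 89. All 3 values were close together, and the summit ranged over 24 bp. The summit lay between genes, 141 bp upstream of Cp190 and 140 bp from the start of CG4338, which is transcribed the other way, so the peak cannot be assigned to either gene by distance.

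pzg encodes a zinc-finger protein, also known as Z4, that accompanies Chromator in interbands. Its peak (chr3L:21285752-21286167) had a signal of 253 at rank 1361. The replicates gave 70.1, 104 and 86.4, a mean of 86.8 ± 16.9 (SD, n = 3), with replicate 2 the highest. The summit lay 139 bp upstream of pzg but 2 bp from the start of CG12974, whose first exon it falls in.

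mod(mdg4) encodes a BTB protein with many isoforms, of which a well-known isoform is the partner of su(Hw) at the gypsy insulator. It had no optimal peak at its own start. The pooled relaxed list held a summit 30 bp upstream (chr3R:21377223-21377638) at a signal of 90.2, rank 5525. Its replicate signals were 17.6, 20.8 and 42.7, at ranks 12326, 9769 and 3798. Replicate 3 was above the others, and the mean was 27.0 ± 13.7 (SD, n = 3). A further optimal peak near this promoter, at a signal of 374, had its summit 1377 bp upstream of mod(mdg4) and 199 bp from the start of tin, the homeobox gene of the heart lineage.

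The strong peak of mod(mdg4) was internal. It lay at chr3R:21365247-21365633, in an intron, 11915 bp from the start to the summit, and reached a signal of 759 and rank 131 in the optimal list. The replicates gave 268, 263 and 231, a mean of 254 ± 20.1 (SD, n = 3), at ranks 117, 128 and 169. These values did not overlap those at the gene's own start in any replicate, and the summit ranged over 17 bp. Many mod(mdg4) isoforms are made by trans-splicing, in which alternative last exons are transcribed separately, some from the opposite strand, and joined to the common first exons. The annotation holds 23 entries for these separate transcripts, named pre-mod(mdg4), whose starts form 4 groups inside the gene. The peak sat on the second group, with the summit 2 bp from the start of pre-mod(mdg4)-E. That group serves 10 of the 23 entries, 3 on the strand of mod(mdg4) and 7 on the opposite strand. The other 3 groups had no optimal summit within 500 bp, and their pooled summits reached signals of 36.8, 45.5 and 48.5.

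The 120 bases between the 2 divergent starts beside this summit (chr3R:21365489-21365608, plus strand, no capitals) are shown because the summit lies 3 bp outside them.
mod(mdg4) internal: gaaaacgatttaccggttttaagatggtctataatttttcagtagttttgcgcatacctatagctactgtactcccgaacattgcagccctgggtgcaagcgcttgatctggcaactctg
No match to any of the 8 motifs searched lay within 150 bases of this summit.

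Among the DNA-binding proteins, Trl had the most peaks. Trl encodes GAGA factor, which binds GAGAG repeats and opens promoters. Its promoter peak (chr3L:14757095-14757288) had a signal of 408 at rank 556, with replicate values of 142, 119 and 143 and a mean of 135 ± 13.5 (SD, n = 3). The summit lay 131 bp downstream of the innermost of 4 Trl starts, in an exon of Trl and also of CG42507, a gene that overlaps Trl. The most upstream start had only a pooled summit of 38.0 at rank 17333, which overlapped a peak in replicate 3 alone.

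The strongest Trl peak was in an intron. At chr3L:14759302-14759721 the signal was 1349, rank 35 of the optimal list. The replicates gave 462, 434 and 459, a mean of 452 ± 15.3 (SD, n = 3), at ranks 32, 39 and 30. All 3 replicates placed it above the promoter peak. The summit was 1542 bp from the nearest Trl start and ranged over 17 bp. Further intron peaks had optimal signals of 288 (chr3L:14755956-14756371) and 214 (chr3L:14760236-14760651). The summit of the first also lay in an intron of CG42507. The replicates gave 82.2, 123 and 85.3 at the first and 67.6, 75.6 and 75.1 at the second. By signal replicate 2 was the highest at both. By percentile it was the highest at the first (95.3, 97.0 and 95.4) and the lowest at the second (93.5, 93.2 and 94.3).

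With 4 optimal summits in its body, 3 of them more than 500 bp from every start, Trl stood alone among the 10 genes. A body summit of any kind was seen in 5 of the 10 genes (Chro, CTCF, BEAF-32, Trl and mod(mdg4)) and in 11.8% of all protein-coding genes. A body summit away from every start was seen in Trl only, and in 6.63% of all genes. At least 3 of these were seen in 1.28% of all genes, and at least 4 body summits of any kind in 1.03%. Trl spans 13121 bp where the median protein-coding gene spans 2166 bp, and the shares were not corrected for length. mod(mdg4), at 26556 bp, was longer and had 1.

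**Figure D3:**
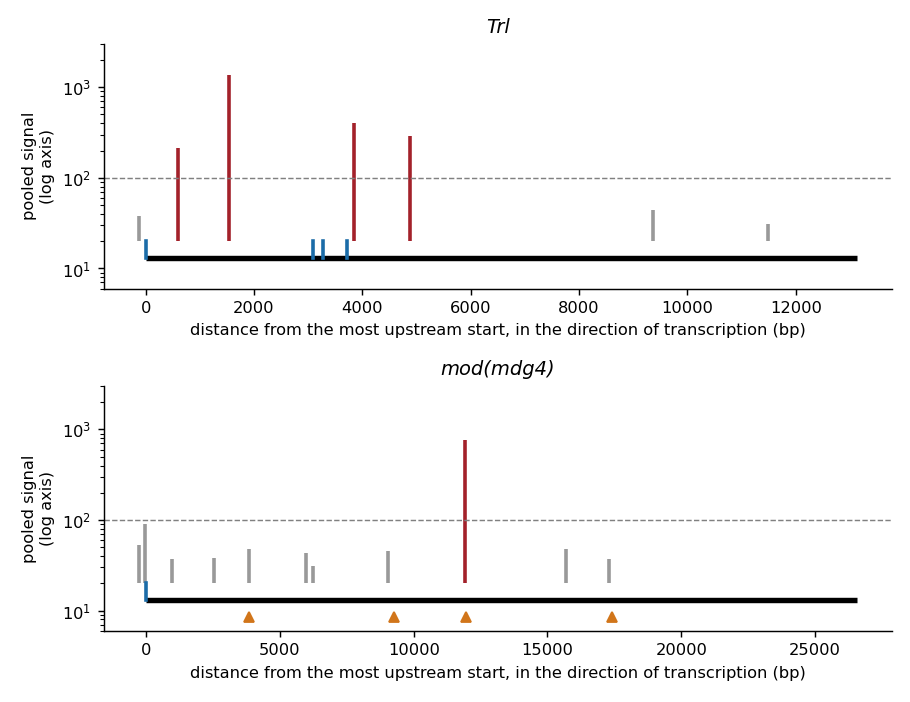
Pooled summits along Trl and mod(mdg4) by distance from the most upstream start, with the pooled signal on a log axis. Red lines are peaks of the optimal list, grey lines weaker peaks, the black bar the gene, blue ticks its starts, orange triangles the groups of pre-mod(mdg4) starts and the dashed line the lowest optimal signal of 99.6. Trl has 4 red lines, and mod(mdg4) has 1, at a triangle.

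CTCF encodes the fly counterpart of the vertebrate zinc-finger insulator protein. Its peak (chr3L:7356461-7356876) had a signal of 129 at rank 3596. The replicates gave 33.3, 54.9 and 48.9, a mean of 45.7 ± 11.2 (SD, n = 3), at ranks 5051, 2685 and 3189. Replicate 1 was the lowest and fell just outside the 4941 strongest peaks. The summit lay 44 bp downstream of the only CTCF start and ranged over 60 bp.

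su(Hw) encodes the zinc-finger protein that binds the gypsy insulator. Its peak (chr3R:14308674-14309089) had a signal of 148 at rank 3016, with replicate values of 49.98, 53.7 and 46.9 and a mean of 50.2 ± 3.43 (SD, n = 3). The values were close, but the summit lay 285, 386 and 312 bp upstream of su(Hw) in replicates 1, 2 and 3, a range above the upper quartile of 80 bp. In the optimal list it lay 293 bp upstream of su(Hw) and 207 bp from the start of Polr2I, an RNA polymerase II subunit gene transcribed the other way. A window of 250 bp therefore leaves su(Hw) out.

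Ibf1 and Ibf2 encode zinc-finger proteins that bind DNA together and recruit Cp190. The genes lie head to head, 463 bp apart, and shared a single pooled summit (chr3R:9258484-9258899) at a signal of 55.3, rank 9870. The replicates gave 10.5, 15.5 and 19.6, at ranks 29825, 16722 and 10329. In replicate 1 this was close to the end of a list of 30000 peaks, and the mean was 15.2 ± 4.58 (SD, n = 3). The only optimal peak within 2000 bp of these genes had a signal of 158, with its summit 191 bp beyond the end of Ibf1 and 47 bp upstream of ATP6AP2, which encodes an accessory protein of the vacuolar proton pump.

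BEAF-32 encodes the boundary element-associated factor, which binds clusters of CGATA. It carried 2 optimal promoter peaks, at chr2R:14770357-14770489 and chr2R:14771035-14771450. The first had a signal of 192 at rank 2088, with its summit 34 bp upstream of the first of 3 starts. The replicates gave 63.8, 76.0 and 65.2, a mean of 68.3 ± 6.69 (SD, n = 3). The second had a signal of 136 at rank 3382, with its summit 58 bp upstream of the third start. The replicates gave 58.4, 48.6 and 30.4, a mean of 45.8 ± 14.2 (SD, n = 3). The first peak was higher than the second in every replicate, and replicate 3 was low at the second. Weaker peaks also overlapped the second site, at 26.4 in replicate 3 and 13.1 in replicate 2, and only the strongest was taken. The antisense gene asRNA:CR42254 overlaps both summits, and its start is 52 bp from the second.

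**Figure D4:**
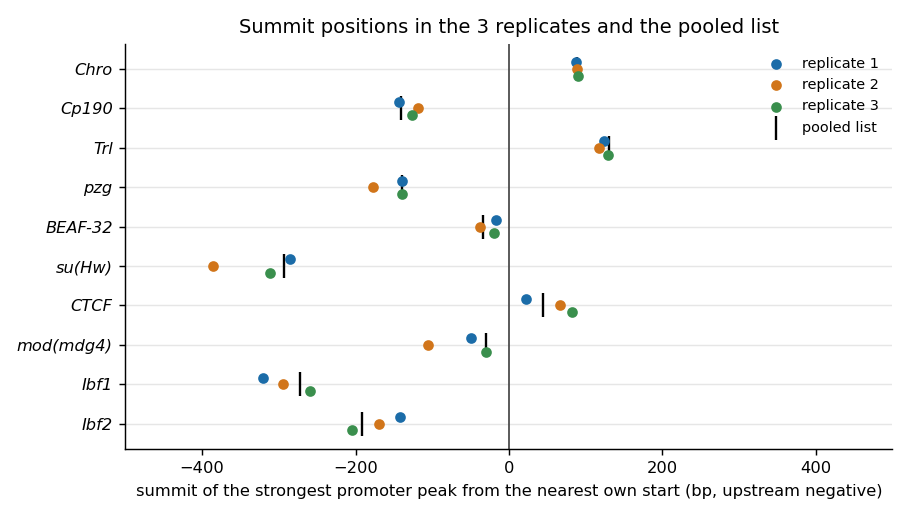
Position of the summit of the strongest promoter peak relative to the nearest start of the same gene, in bp with upstream negative, for each replicate (points) and the pooled list (bar). The points of Chro lie within 2 bp of each other, and those of su(Hw) spread from 285 to 386 bp upstream.

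Over the 7 genes there were 8 optimal promoter summits, 5 upstream of the nearest own start and 3 downstream (Chro, CTCF and Trl). Measured to the closest start of any gene, 3 of the 8 were upstream (Cp190, su(Hw) and the first of BEAF-32), since those of pzg and the second of BEAF-32 lay just inside a neighbour. By that same measure 84.2% of all 2550 optimal promoter summits were upstream. At 6 of the 8 the window of 500 bp held starts of at least 2 genes, against 44.1% of all optimal promoter summits. A start on the opposite strand within 1000 bp upstream of the most upstream start was present at 8 of the 10 genes, all but CTCF and mod(mdg4), against 38.2% of all protein-coding genes. That arrangement was also commoner among genes with an optimal promoter summit, at 66.2%, than among genes with none, at 30.1%. The 8 of 10 therefore has to be read against both shares. It includes Trl through Mgat4a, 979 bp from a Trl start without an optimal peak, and BEAF-32 through asRNA:CR42254. Ibf1 and Ibf2 are in it as each other's partner.

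The DRE was present at genes with and without an optimal promoter peak. Searches on both strands covered 8 motifs, namely CGATA for BEAF-32, TATCGATA for Dref, GAGAG for GAGA factor, GGTCACACT for M1BP, GCATACTTT for su(Hw), AGGNGGC for CTCF, CAGCTG as an E-box and TATAAA as a TATA box. In the window from 250 bases before to 50 after the most upstream start, TATCGATA was present at 6 of the 10 genes (Cp190, CTCF, BEAF-32, mod(mdg4), Ibf1 and Ibf2), against 9.37% of all protein-coding genes. The first base of the match lay 4 to 210 bases before the start. It was present at 3 of the 7 genes with an optimal promoter summit and at all 3 without, while over all genes the shares were 15.2% with a summit and 7.67% without. In these counts the summit could be at any start of a gene. At Trl it was at the innermost start, and the window searched, at the most upstream start, held no optimal summit. The matches at Ibf1 and Ibf2 are separate sites.

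Around the summits themselves the matches to the DRE were fewer. With 150 bases taken on each side of the 8 optimal promoter summits, TATCGATA was present at 2 (Cp190 and CTCF), against 10.9% of all such windows, and it began 144 and 58 bp from the summit. At mod(mdg4) it began 17 bp from the weak pooled summit. The matches at Ibf1 and Ibf2 began 232 and 191 bp from their shared pooled summit, and the one at Ibf1 was outside the peak. In the promoter window CGATA was present at 7 of the 10 genes, against 47.5% of all protein-coding genes. With 150 bases on each side it was in 6 of the 8 summit windows, against 49.6% of all. With 50 bases on each side it was in 2 of the 8 (Chro and pzg), against 22.0% of all, a share close to the background. With 150 bases on each side GAGAG was in none of the 8, against 29.3%, including the summit at the gene of GAGA factor itself. The su(Hw) and CTCF letters searched were in none of the 8, against 0.706% and 8.12%. GGTCACACT was also in none, against 5.57%. CAGCTG was in 1 (CTCF), against 19.0%, and TATAAA in 5, against 49.0%. In the promoter window GGTCACACT was present at 1 of the 10 genes, su(Hw), against 6.05%.

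A wider list of 20 architectural genes gave 9 with an optimal promoter summit, beside the same 22.5%. By signal these were Cap-H2 (400.8, a condensin II subunit), shep (366, an RNA-binding protein that limits gypsy insulator activity), M1BP (357, which binds motif 1 of core promoters), JIL-1 (209, a histone H3 kinase of interbands), pita (208, a zinc-finger insulator protein), e(y)2 (198, shared by SAGA and the mRNA export complex), Dref (192, the DRE-binding factor), fs(1)h (173, the BET bromodomain protein) and l(3)mbt (101.3, an MBT repeat protein). Of these, 7 were among the 4941 strongest peaks of all 3 replicates, all but fs(1)h and l(3)mbt. That is 7 of the 20, beside 17.5% of all protein-coding genes. The nearest start belonged to another gene at Cap-H2, M1BP, e(y)2, fs(1)h and l(3)mbt. The median optimal signal of the 9 was 208, against 253 for the 7 genes above and 198 over all 3137. None of the 20 reached the signal of Chro or Cp190. The list also held shep with 5 and JIL-1 with 3 body summits away from every start, as many as Trl or more. At least 3 were seen in 1.28% of all protein-coding genes, a share not corrected for length.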

How the data were processed

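Peaks came from the lists the authors deposited for 3 biological replicates on dm6. By the deposited listings, the relaxed list of a replicate served as input for IDR, the pooled list used all 3 alignments and a control (not analysed here), and the optimal list was derived from both kinds. The software for alignment and peak calling is not given in the sources used here. Deposited signal (column 7) ranked peaks within a list, the deposited summit offset (column 10) gave positions, and the deposited −log10 q value (column 9) was copied only. Every optimal peak is also in the pooled list. Depth is unknown, because peak lists carry no counts.

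Summits were compared with transcript starts of Ensembl release 115, transposable elements left out, in Python 3.11.15 with pandas 2.3.3, and sequences were read from the release 6 genome of RefSeq. Sites were followed into replicates by 1 bp of overlap, taking the strongest peak. Counting was tested on simulated data. All 10 genes were named, and of the wider list those with an optimal promoter summit. The members and lists were chosen with earlier results of these data known. Alternatives changed the window, the starts, the list and the replicates.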

Additional observations from a re-analysis of the deposited data

How the results depend on the processing

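The count of 7 genes with an optimal promoter summit became 4 when the nearest start had to be the gene's own, where Cp190 was lost by 1 bp. Of the alternative counts in this section, a share over all genes was computed only for promoter summits in the pooled relaxed list, 49.7%. The shares given earlier are therefore not like comparisons for the counts under the other alternative settings. The count of 7 genes stayed between 5 and 10 under the other alternatives. These included 10 in the pooled relaxed list, and 8 when the internal pre-mod(mdg4) starts were counted, a setting chosen after seeing the data. Leaving out a replicate, with the gene required among the 4941 strongest peaks of both others, gave 6 to 7, and CTCF was the gene that changed, with replicate 1. The same applies to the 6 genes found in all 3 replicates, at 6 to 7. That count was 10 with the whole relaxed lists. It was 5 at 250 bp and also 5 with the 2470 strongest peaks of each replicate, in both cases without su(Hw). The count of 1 gene with a body summit away from starts was 2 when only the gene's own starts were avoided, which adds mod(mdg4), 4 in the pooled relaxed list, and 1 without each replicate in turn. The median percentile of 72.5 was 80.6 at 250 bp, where su(Hw) drops out, and 89.6 in the pooled relaxed list, which is longer. The mean percentile of Ibf1 and Ibf2, 32.4, was 16.3 without replicate 3 and 48.3 without replicate 1, and that of mod(mdg4), 68.7, was 59.6 and 73.6. At 250 bp su(Hw) and Ibf1 gave no such value in all replicates. No paired analysis was possible because there was 1 group. Depth is unknown, so weak peaks such as those of mod(mdg4), Ibf1 and Ibf2 cannot be given a counting error.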
